A study of Mus musculus with 24 samples.

Results

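The C/EBP transcription factors were followed through mouse cortex after an experimental stroke, as the transcripts of Cebpa, Cebpb, Cebpd and Cebpg. The members were chosen by symbol, as the rows of these names found in every deposited expression table. They are 4 of the 14769 genes listed in any table, and of the 14014 listed in all 4 tables. The mice were males of 3 to 4 months with the strain given as C57BL/6N-Cdr1asem1Nikr, wild type (WT) or lacking ciRS-7 (KO), a circular RNA also called Cdr1as. In every animal, controls included, a filament closed the middle cerebral artery for 1 h (tMCAo), and the cortex was taken after 1 day of reperfusion. The 4 groups of 6 libraries were PI WT and CL WT, PI KO and CL KO, with 1 CL and 1 PI library from each animal. CL and PI are marks of the labels that the sources used here do not spell out. No group without occlusion was analysed here, KO and WT animals carry the same strain name, and the tissue was whole cortex rather than sorted cells.

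The C/EBP proteins are basic leucine zipper factors that bind DNA as homodimers or as heterodimers with each other and with factors of the ATF group. C/EBPβ and C/EBPδ are known for acute-phase and inflammatory gene control downstream of interleukin-6 and interleukin-1, and in brain they are studied in microglia and astrocytes. C/EBPα is known for myeloid and hepatic differentiation, and C/EBPγ, which lacks a strong activation domain, pairs with other members and with ATF4 in stress responses.

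All 4 members are compact genes. On the mouse build GRCm38, with GENCODE release M21, Cebpa lies at chr7:35119293-35121928 on the plus strand, as 1 exon. Cebpg lies on the minus strand of the same chromosome at chr7:35046422-35056573, with 2 exons, 62.7 kb from Cebpa. Cebpb is a gene of 1 exon at chr2:167688915-167690418 on the plus strand. Cebpd, also of 1 exon, lies at chr16:15887286-15891031 on the plus strand. The 5′ part of Cebpb is overlapped by Tmem189 on the minus strand, the 3′ part of Cebpd by Spidr on the minus strand, and the start of Cebpa by the antisense gene Gm45091. Cebpg overlaps the antisense gene Gm45095 near its start, and Gm44836 and Gm45094 on its own strand. The use of strand in counting is not given in the sources used here, so reads from these overlaps are uncertain.

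The promoters are shown as the sequence at which transcription of the members begins, since the results below turn on how their transcripts differed between PI and CL. RefSeq entries (GRCm38.p6) matched 3 of the 4 members, Cebpd being the other. Each sequence holds the 250 bases before the RefSeq start, read 5′ to 3′ on the gene's own strand. The windows are chr7:35119043-35119292 for Cebpa, chr2:167688665-167688914 for Cebpb and chr7:35056567-35056816, on the minus strand, for Cebpg. Capitals mark every match to 5 motifs searched on both strands, which are TGACG (the core CRE site of CREB and ATF factors), TTGCNNAA (a C/EBP site), TTCNNNGAA (a STAT site), TATAAA and CCAAT.
Cebpa: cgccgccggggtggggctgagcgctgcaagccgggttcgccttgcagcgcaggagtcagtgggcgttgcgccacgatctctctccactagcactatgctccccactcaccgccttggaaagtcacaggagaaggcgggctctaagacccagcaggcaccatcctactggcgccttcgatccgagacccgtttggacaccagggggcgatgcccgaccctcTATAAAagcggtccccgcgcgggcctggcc
Cebpb: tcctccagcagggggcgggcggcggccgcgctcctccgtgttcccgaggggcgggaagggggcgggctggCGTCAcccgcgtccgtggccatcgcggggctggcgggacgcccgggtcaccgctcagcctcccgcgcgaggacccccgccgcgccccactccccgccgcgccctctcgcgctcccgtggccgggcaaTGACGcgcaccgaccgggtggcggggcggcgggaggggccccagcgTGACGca
Cebpg: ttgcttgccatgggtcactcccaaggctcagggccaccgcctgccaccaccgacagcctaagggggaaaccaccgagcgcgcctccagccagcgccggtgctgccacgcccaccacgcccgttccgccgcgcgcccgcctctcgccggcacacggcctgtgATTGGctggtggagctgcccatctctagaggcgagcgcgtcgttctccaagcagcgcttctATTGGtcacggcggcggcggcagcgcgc
Cebpb carried 3 matches to TGACG, 1 of them on the minus strand as CGTCA, at 180 to 176, 53 to 49 and 7 to 3 bases before the start. Among 32851 RefSeq mouse promoters of this length 17.8% held at least 1 match to TGACG and 0.688% held 3 or more. Cebpa carried 1 TATAAA at 30 to 25 bases before the start, a motif found in 12.4% of promoters. Cebpg carried 2 CCAAT matches, on the minus strand as ATTGG, at 89 to 85 and 28 to 24 bases, where 33.9% of promoters hold at least 1. TTGCNNAA, present in 9.56% of promoters, and TTCNNNGAA, present in 7.02%, had no match in the 3 windows. The share of G and C was 81.6% in the window of Cebpb, 70.8% in that of Cebpg and 66.4% in that of Cebpa. A match is a description of the letters, and binding was not measured.

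Levels are log2 CPM, a gene's reads relative to a scaled total of its library on a log2 scale. They were deposited in 4 tables that each held 2 groups and were scaled separately. Each gene had ties at the bottom and at the top of every group of 6, since its outer values were set to the quartiles of that group (drawn in). The lowest and highest values below are these deposited ones, so the true range between animals was wider. Tests used the mean of the 4 values per group that can be recovered, with limma's moderated error (the trimmed-mean test), and a call needed an adjusted p below 0.05. The step between low values gave depths of 3.74 to 10.5 M reads (megareads) per library (median 6.91). These are totals as scaled in each table, such as 9.89 and 9.68 for PI WT replicate 1, rather than counts of all reads. The members' deposited values came to 15.2 to 53.0 reads per library for Cebpa, 15.4 to 61.2 for Cebpb, 13.1 to 127 for Cebpd and 134 to 404 for Cebpg. The targeted circle checked the genotype labels, since Cdr1as stood at 2610 to 3801 CPM in the WT groups and at no more than 0.166 CPM in the KO groups. CL KO replicate 6 was the shallowest library and was among the drawn-in values in 89.4% of genes, and PI WT replicate 4 in 80.6%, where the other 22 libraries ran from 53.0% to 74.8%. All 13 neuron markers, defining for cortex, were listed in every table.

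Cebpd showed the largest difference of the 4 members between PI and CL, and it was called in both genotypes. In WT animals Cebpd stood at 2.07, 2.28 and 2.40 log2 CPM (lowest, median and highest of 6) in CL. In PI WT it stood at 3.37, 3.55 and 3.68. Every deposited PI value was above every deposited CL value, and the recoverable values of the groups were 0.88 apart. Recoverable values were apart with PI higher, by any gap, in 13.2% of all genes. The trimmed-mean test gave a rise of 1.28 on the log2 scale (SE 0.16, 95% interval 0.94 to 1.63, adjusted p = 0.000339), or 2.43-fold. Cebpd was thus 1 of the 10.6% of 14489 genes called in this comparison, 5.20% being called as higher. In a bulk sample such a difference can come from more cells that express the gene or from more RNA per cell, which cannot be told apart.

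In KO animals the rise of Cebpd was 1.86 on the log2 scale (SE 0.14, 95% interval 1.56 to 2.15, adjusted p = 8.43e-06), or 3.62-fold. CL KO libraries held 1.81, 1.85 and 1.87 log2 CPM of Cebpd (13.1 to 37.7 reads per library), and PI KO libraries 3.58, 3.68 and 3.83. The groups were again apart, with a gap of 1.69 between recoverable values and little spread in CL KO. In 13.4% of all genes they were apart with PI higher, by any gap. The part of counting error in the spread of Cebpd in CL KO was not tested. In this comparison 10.0% of 14338 genes (1440) were called and 5.11% were called as higher. The count was 922 without PI KO replicate 2, 900 without CL KO replicate 5 and 739 with an untrended prior, which gave 1015 in WT in place of 1537. Paired by animal, Cebpd was higher in PI in 3 WT and 2 KO animals, and in the other 3 and 4 the drawn-in values do not give the sign. It stayed called without any one library, with values of 1.20 to 1.35 in WT and of 1.80 to 1.90 in KO, and CL KO replicate 6 made little difference (1.84 without it).

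Cebpb, the partner of C/EBPδ in acute-phase control, was higher in PI by a smaller amount. CL WT libraries held 1.81, 1.93 and 2.20 log2 CPM of Cebpb and PI WT libraries 2.41, 2.51 and 2.63. These groups did not overlap, with a gap of 0.10 between recoverable values, and 13.2% of all genes were apart in this way with PI higher. The difference of 0.54 (SE 0.18, 95% interval 0.15 to 0.92) did not pass the trimmed-mean test after adjustment (adjusted p = 0.0786). Without CL WT replicate 5 or CL WT replicate 6 it was 0.64 and passed the same trimmed-mean test, with adjusted p = 0.0422 and adjusted p = 0.0435.

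In KO animals Cebpb rose by 0.75 on the log2 scale (SE 0.19, 95% interval 0.34 to 1.16, adjusted p = 0.0267 in the trimmed-mean test), or 1.68-fold. The CL KO values of Cebpb were 1.69, 1.77 and 2.04 log2 CPM and the PI KO values 2.41, 2.60 and 2.73. The groups were apart by 0.27 in the recoverable values, as were 13.4% of all genes with PI higher. The call of Cebpb was lost on leaving out PI KO replicate 1, 2 or 3 or CL KO replicate 1, 2, 3 or 5, with values from 0.69 to 0.75 and adjusted p from 0.0557 to 0.0723. Without CL KO replicate 6 it was 0.84 (adjusted p = 0.0154). Paired by animal, Cebpb was higher in PI in 3 animals of each genotype, and in the other 3 the sign could not be recovered. In WT and in KO the 95% intervals of Cebpb and Cebpd did not overlap.

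**Figure D1:**
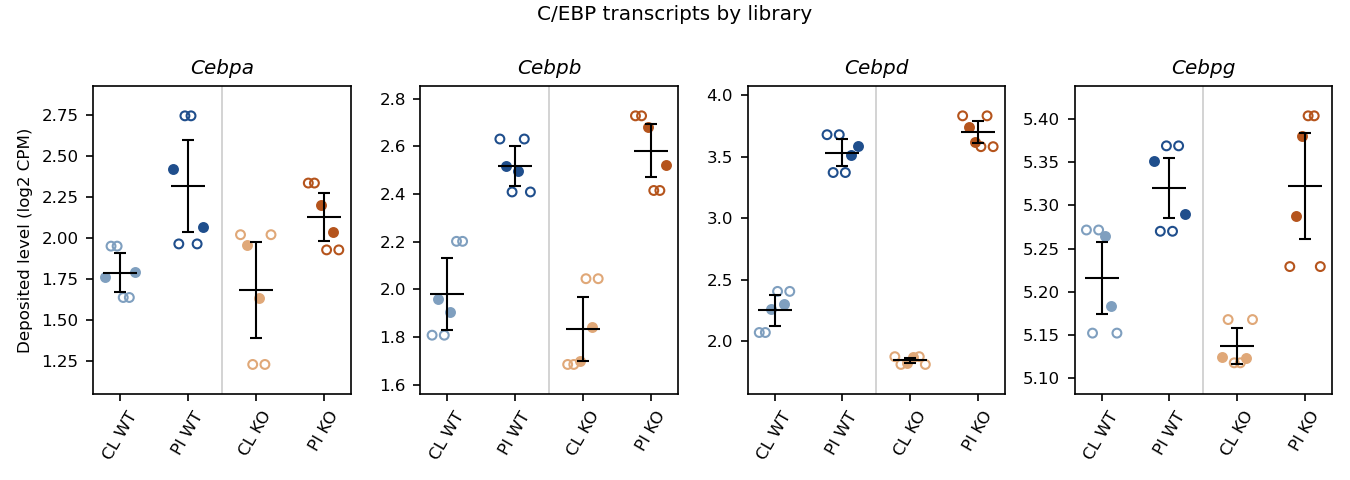
Deposited level of each C/EBP transcript in the 24 libraries, on a log2 CPM axis of its own for each gene; open circles are values drawn in to a quartile, filled circles are unaltered values, and black bars are the trimmed mean ± SE of a group (n = 6). The grey line separates the WT table from the KO table, which were scaled separately, and Cebpd shows PI above CL in both.

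Cebpa, the myeloid and hepatic factor, was not called in either genotype. Cebpa stood at 1.64, 1.78 and 1.95 log2 CPM in CL WT and at 1.97, 2.25 and 2.75 in PI WT. The recoverable values overlapped, and the difference was 0.53 (SE 0.25, 95% interval -0.02 to 1.08, adjusted p = 0.230 in the trimmed-mean test). In KO the CL values were 1.23, 1.80 and 2.02 and the PI values 1.93, 2.12 and 2.34, with overlap. That difference was 0.45 (SE 0.28, 95% interval -0.15 to 1.05, adjusted p = 0.355). In each genotype Cebpa was higher in PI in 3 animals and lower in 1, and in 2 the sign could not be recovered. These intervals include no difference as well as a rise as large as that of Cebpb.

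Cebpg, the dimer partner with the highest level, differed least. In WT it stood at 5.15, 5.22 and 5.27 log2 CPM in CL and at 5.27, 5.32 and 5.37 in PI, with overlap of the recoverable values. The difference was 0.10 (SE 0.07, 95% interval -0.05 to 0.26, adjusted p = 0.407 in the trimmed-mean test). In KO, Cebpg stood at 5.12, 5.12 and 5.17 in CL and at 5.23, 5.33 and 5.40 in PI. The recoverable values were apart by 0.03, as were those of 13.4% of all genes with PI higher. The difference of 0.19 (SE 0.08, 95% interval 0.02 to 0.36) was not called either (adjusted p = 0.158 in the trimmed-mean test). With the upper bounds at 0.26 and 0.36, a rise of Cebpg as large as that of Cebpd lies outside both intervals.

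The makeup of the 4 genes' reads moved with Cebpd. Its median share of their summed CPM was 9.74% in CL WT (8.44% to 10.8%) and 18.8% in PI WT (16.9% to 19.8%). In KO the share of Cebpd was 8.0% in CL and 20.6% in PI. The share of Cebpg was 75.4% in CL WT and 63.7% in PI WT, and 76.7% and 63.8% in the KO groups. The share of Cebpb was 7.80% and 9.36% in WT and 7.74% and 9.80% in KO. Cebpa held 6.97% and 7.57% in WT, and 7.59% and 6.77% in KO. These shares are of reads, so a longer transcript counts for more.

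**Figure D2:**
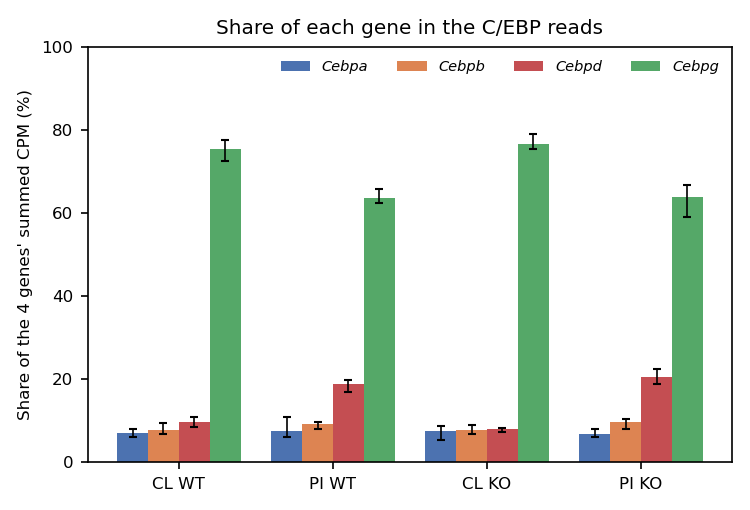
Median share of each gene in the summed CPM of the 4 C/EBP transcripts (%), per group of 6 libraries, with whiskers from the lowest to the highest deposited library. The red bars of Cebpd stand at 9.74% in CL WT and 18.8% in PI WT, and at 8.0% and 20.6% in the KO groups.

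Per kilobase of the GENCODE transcript, Cebpg had the highest level in every group. In CL WT it stood at 7.89 CPM per kb, Cebpb at 2.62, Cebpa at 1.32 and Cebpd at 1.27. The deposited values of Cebpa (1.19 to 1.47) and Cebpd (1.12 to 1.41) overlapped there, and the other neighbours in the order did not. In PI WT the order was Cebpg at 8.48, Cebpb at 3.80, Cebpd at 3.09 and Cebpa at 1.90 CPM per kb, with no overlap between neighbours. In PI KO Cebpb at 3.98 and Cebpd at 3.47 overlapped. The place of Cebpd depends on the transcript length, which is 3746 bases in GENCODE and 2260 in RefSeq. The RefSeq span of Cebpg includes an intron and was not used, so this second length bears on the genes of 1 exon. With the RefSeq length Cebpd stood at 2.11 CPM per kb in CL WT and 5.13 in PI WT, above the 3.77 of Cebpb there.

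The genes that overlap the members on the other strand did not move as Cebpb and Cebpd did. Tmem189, across the start of Cebpb, stood at 4.12 log2 CPM in CL WT and 4.17 in PI WT (medians), a difference of 0.04 (95% interval -0.15 to 0.22, adjusted p = 0.856 in the trimmed-mean test). In KO the difference of Tmem189 was 0.08 (95% interval -0.12 to 0.27). Spidr, across the end of Cebpd, had medians of 1.35 in CL WT and 1.64 in PI WT, and differed by 0.30 (95% interval -0.14 to 0.73, adjusted p = 0.419). In KO Spidr differed by 0.44 (95% interval -0.38 to 1.26). The reads that the overlaps add to either gene were not tested.

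Between genotypes no member was called, on either side. In PI, Cebpd stood at 3.62, 3.71 and 3.87 log2 CPM in KO and at 3.39, 3.58 and 3.71 in WT, in the table of these groups. The recoverable values of Cebpd overlapped, and KO minus WT was 0.17 (SE 0.14, 95% interval -0.12 to 0.47, adjusted p = 0.891 in the trimmed-mean test). The other differences in PI were 0.07 for Cebpb (95% interval -0.27 to 0.42), -0.19 for Cebpa (-0.76 to 0.38) and 0.01 for Cebpg (-0.17 to 0.19). All 4 members overlapped between these groups in recoverable values, and 8.97% of all genes did not. In this comparison 3 of 14452 genes were called, which is 0.0208%.

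In CL, Cebpd was lower in KO in the recoverable values, without passing the test after adjustment. Its values were 1.78, 1.82 and 1.84 log2 CPM in CL KO (13.1 to 37.7 reads per library) and 2.04, 2.25 and 2.37 in CL WT. The groups were 0.13 apart, as were 8.67% of all genes in one direction or the other. The difference was -0.40 (SE 0.17, 95% interval -0.78 to -0.03, adjusted p = 0.833 in the trimmed-mean test), and Cebpd was 1 of the 5.73% of 14323 genes with an unadjusted p under 0.05, while 0.0279% were called. Without CL KO replicate 6 it was -0.39 (adjusted p = 0.850). Cebpa differed by -0.10 (95% interval -0.69 to 0.49), Cebpb by -0.14 (-0.59 to 0.31) and Cebpg by -0.07 (-0.22 to 0.08) in CL.

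Whether the PI minus CL difference itself differed between genotypes was tested over the 14211 genes listed in both tables of PI and CL, and no gene was called (0%). By the trimmed-mean test 646 genes (4.55%) had an unadjusted p under 0.05, Cebpd among them. For Cebpd the KO difference exceeded the WT difference by 0.57 (SE 0.21, 95% interval 0.14 to 1.01, adjusted p = 0.992). The libraries behind it are those of the genotype comparisons above, so it is no separate support for them. For Cebpb the excess was 0.21 (95% interval -0.33 to 0.75), for Cebpg 0.08 and for Cebpa -0.08. The call of Cebpb in KO and its absence in WT are therefore not shown to differ.

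**Figure D3:**
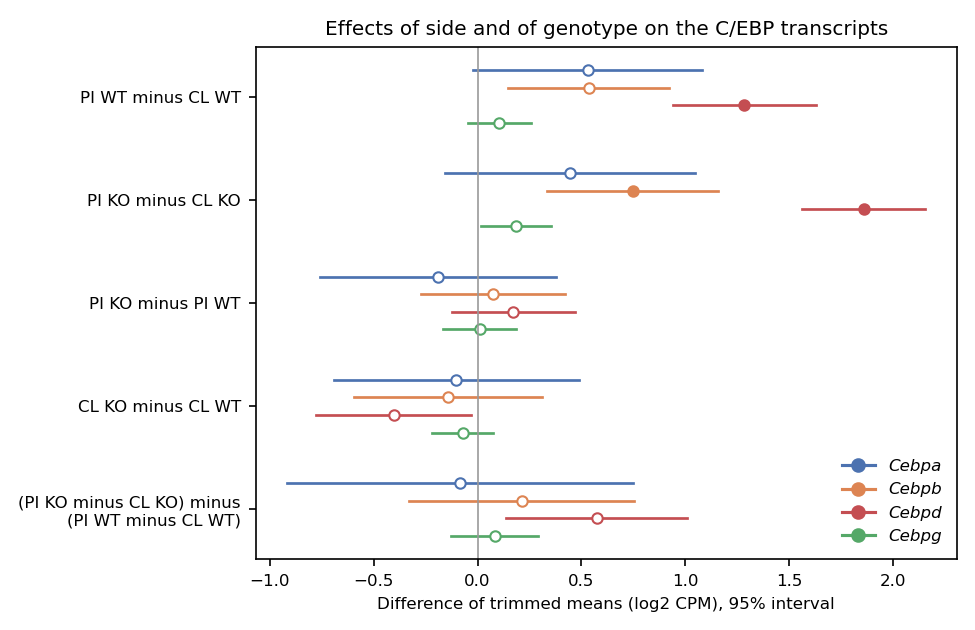
Differences of trimmed means on the log2 CPM scale for the 4 C/EBP transcripts in the 5 comparisons, with 95% intervals; filled points were called at an adjusted p under 0.05 and open points were not. Cebpd is called at 1.28 in WT and 1.86 in KO, Cebpb at 0.75 in KO, and no point is filled in the 3 lower comparisons.

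Signals known to raise Cebpb and Cebpd were examined as a list of 18 genes, 13 of which were listed in the tables of PI and CL. In WT 5 of the 13 were called as higher in PI, 2 as lower and 6 were not called. The median difference was 0.08 against 0.01 over all genes, of which 5.20% were called as higher and 5.40% as lower. Osmr, the oncostatin M receptor, rose by 2.51 (log2 units, SE 0.24, adjusted p = 6.35e-05), from 2.25 to 2.81 log2 CPM in CL WT to 4.59 to 5.24 in PI WT. Tnfrsf1a, a receptor of tumour necrosis factor, rose by 1.85 (adjusted p = 3.32e-05) and Stat3, which carries the interleukin-6 signal to the nucleus, by 1.15 (adjusted p = 1.95e-05). Il1r1, the interleukin-1 receptor, rose by 0.92 (adjusted p = 0.0248). Its co-receptor Il1rap fell by 0.28 (adjusted p = 0.0260), and Nr3c1, the glucocorticoid receptor, fell by 0.24 (adjusted p = 0.0470). In KO 6 of 13 were called as higher and none as lower, among them Osmr at 2.62, Tnfrsf1a at 1.96, Il1r1 at 1.21 and Stat3 at 1.18. The KO median was 0.16 against -0.00 over all genes, of which 5.11% were called as higher and 4.94% as lower. The cytokine genes Il1b, Tnf, Osm and Lif were not listed in any table. In the table of the PI groups 14 of the 18 were listed.

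Of 7 relatives and dimer partners, 3 were listed, and Cebpe, Batf, Batf2 and Batf3 were not. Atf4, the stress factor that pairs with C/EBPγ, rose in WT by 0.24 (adjusted p = 0.0470) and differed in KO by 0.20 (adjusted p = 0.327), both in the trimmed-mean test. Atf5 rose in KO by 0.90 (adjusted p = 0.0387) and differed in WT by 0.58 (adjusted p = 0.138). Ddit3, which encodes the inhibitory partner CHOP, was not called (0.47 in WT and 0.06 in KO). The medians of the 3 were 0.47 and 0.20. Among 6 regulators of C/EBP protein, all listed, none rose and 1 fell in each genotype (5.40% and 4.94% of all genes were called as lower), with medians of -0.10 and -0.17. It was Fbxw7, a ubiquitin ligase subunit known to target C/EBP proteins, at -0.22 in WT (adjusted p = 0.0363) and -0.22 in KO (adjusted p = 0.0337).

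Genes known as acute-phase or inflammatory targets of the family included large differences. Of 24 such genes 9 were listed in the WT table and 7 in the KO table, and each of these was called as higher in PI, where 5.20% and 5.11% of all genes were. The medians were 2.84 in WT and 2.72 in KO. In the table of the CL groups only 5 were listed, A2m, Serpina3n, Socs3, Cp and Ptgs2. Lcn2, Cd14, Ptx3 and Ccl2 were not, so their place in a table of PI and CL rests on their PI values, and neither the count nor the median describes the 24. Of the 5, the protease inhibitors A2m and Serpina3n rose in WT by 2.84 (adjusted p = 2.11e-06) and 2.54 (adjusted p = 1.86e-05), and in KO by 3.60 and 2.72. Socs3, a brake on cytokine signalling, rose by 2.43 in WT (adjusted p = 0.000115) and 2.35 in KO (adjusted p = 0.000423). Ceruloplasmin (Cp) and the prostaglandin synthase gene Ptgs2 rose less, by 0.52 and 0.49 in WT and by 0.62 and 0.69 in KO. Lcn2, a siderophore-binding protein, stood at 0.11, 0.43 and 0.56 log2 CPM in CL WT and at 3.64, 3.74 and 3.87 in PI WT, a difference of 3.38. Cd14, a co-receptor for bacterial lipid, differed by 3.41 in WT and by 3.04 in KO, from a low 0.29 log2 CPM (trimmed mean, SE 0.52) in CL KO. Lcn2 differed by 3.52 in KO. The listing of Lcn2 and Cd14 through their PI values favours a rise in PI, so no p is given for them. Ptx3, a soluble pattern receptor, stood at 0.133 to 0.478 CPM in CL WT and at 6.23 to 7.61 CPM in PI WT. The chemokine Ccl2 stood at 0.146 to 0.251 and at 3.18 to 4.44 CPM. Both are called, but the CL levels rest on a few reads per library, so no fold is given, and neither gene was listed in the KO table. In PI, KO minus WT was positive for 9 of 10 listed genes of this group with a median of 0.28, and none was called. In the same comparison 10 of 12 microglia markers were positive with a median of 0.25, and 11 of the 13 listed stress genes described below with a median of 0.09. The median over all genes was -0.005, and 3 of 14452 genes were called. Genes of a list come from the same libraries, and the share of all genes with a positive difference is not given here. These sign counts are therefore descriptions and no result on genotype. The part of the microglia markers in this was not tested.

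Stress genes known to be driven by ATF4 with C/EBPγ were listed for 12 of 15 members. In WT 5 were called as higher (5.20% of all genes were) and 7 were not called, with a median of 0.43. Slc7a11, the cystine transporter, rose by 1.05 (SE 0.12, adjusted p = 0.000217), from a median of 5.70 to 6.75 log2 CPM. Mthfd2, of mitochondrial one-carbon metabolism, rose by 0.70 (adjusted p = 0.0134), and the amino acid transporter chains Slc7a5 and Slc3a2 by 0.52 (adjusted p = 0.0176) and 0.48 (adjusted p = 0.000785). In KO 6 were called as higher (5.11% of all genes were) and 6 were not called (median 0.60). There Mthfd2 rose by 1.47 (adjusted p = 0.00152) and Slc7a11 by 0.78 (adjusted p = 0.00235). None of the list's genes was called as lower.

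Myeloid genes of the kind C/EBPα and C/EBPβ control were a list of 9. Of these, 7 were listed in WT, where 2 rose and 5 were not called (median 0.79), and 6 in KO, where 1 rose and 5 were not called (median 0.25). Of all genes 5.20% were called as higher in WT and 5.11% in KO. Itgam, the CD11b chain, rose by 1.08 in WT (adjusted p = 0.000108) and by 0.95 in KO (adjusted p = 0.00212). Csf2rb, a cytokine receptor subunit, differed by 1.70 in WT and was not listed in the KO table. In the table of the CL groups only 5 of the list were listed, without Csf2rb and Spi1. The place of those genes in a table of PI and CL rests on their PI values, which favours a rise, so no p is given for Csf2rb. Neither the counts nor the medians therefore describe the 9. With each animal's PI and CL libraries paired, the test called 5 of the listed myeloid genes in WT and 2 in KO. The share of all genes that the paired test called is not given here, so these counts cannot be set against it. Genotype comparisons called no gene of the 6 lists, nor did the interaction.

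**Figure D4:**
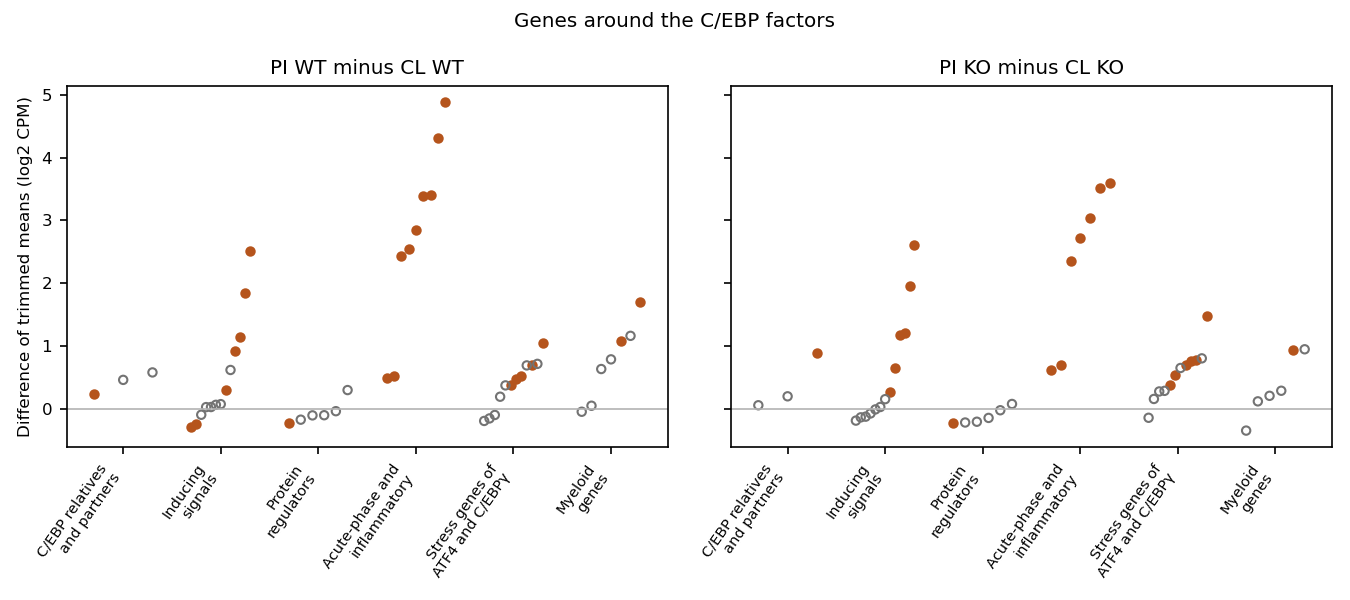
Difference of trimmed means (log2 CPM) for each listed gene of 6 lists around the C/EBP factors, PI minus CL, in WT (left) and KO (right); filled points were called at an adjusted p under 0.05 and open points were not. The highest points belong to acute-phase and inflammatory genes, of which only 5 were listed in the table of the CL groups, and the regulators of C/EBP protein have medians of -0.10 and -0.17.

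Marker lists of cell types were followed beside these results. The 12 microglia markers were all listed, and their summed level ran from 209 to 223 CPM in CL WT and from 223 to 254 in PI WT. In KO it ran from 221 to 246 in CL and from 250 to 296 in PI. In WT 5 of them were called as higher and 3 as lower, where 5.20% and 5.40% of all genes were. In KO the counts were 5 and 1, where 5.11% and 4.94% of all genes were. P2ry12 fell, by 0.82 in WT (adjusted p = 0.0139) and by 0.75 in KO (adjusted p = 0.00303), and Tmem119 was not called (-0.15 and -0.31). Of 12 markers of neutrophils and monocytes, none was listed in the tables of PI and CL. In the table of the PI groups S100a8 and S100a9 were listed, with a sum of 2.20 to 4.12 CPM in WT and 3.39 to 9.32 in KO, and Ly6g was not. Neuron markers summed to 6996 to 7521 CPM in CL WT and 5970 to 6620 in PI WT, and to 7019 to 7280 and 5786 to 6419 in KO. The 10 astrocyte markers summed to 7685 to 8091 in CL WT and 6691 to 7095 in PI WT, and to 7711 to 8204 and 6494 to 7191 in KO. Most of this sum was Slc1a2, at 12.7 log2 CPM in CL WT and in CL KO, so it does not describe the 10 as a set. Of the 10, 1 was called as higher and 3 as lower in WT, where 5.20% and 5.40% of all genes were. In KO 1 was called as higher and 1 as lower, where 5.11% and 4.94% of all genes were. Sums of endothelium, striatum and blood markers overlapped between PI and CL in both genotypes. Oligodendrocyte markers summed to 2179 to 2380 CPM in CL WT and 1521 to 2143 in PI WT, and to 1754 to 2354 and 1683 to 1900 in KO. Of 8 choroid plexus markers 2 were listed, Enpp2 and Kl, while Ttr, Aqp1, Clic6, Folr1, Kcnj13 and Otx2 were not listed in any table. The 2 summed to 321 to 348 in CL WT and 193 to 222 in PI WT, and to 330 to 354 and 219 to 225 in KO. Nearly all of this was Enpp2, at 8.38 log2 CPM in CL KO against 1.36 for Kl, so the sum does not describe choroid plexus. The part of these shifts in the differences of Cebpb and Cebpd was not tested.

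The genes whose levels ran most like each member were found over 13360 genes, as Pearson's r across the 12 libraries of each PI and CL table, averaged over the 2 tables. These libraries share the PI and CL contrast, and drawn-in values raise r, so the values are descriptions. For Cebpd they were Fcgr2b (0.991), A2m (0.990) and Gbp3 (0.990), an Fc receptor, a protease inhibitor and a guanylate-binding protein. Fcgr2b rose by 1.64 in WT and 1.99 in KO, A2m by 2.84 and 3.60, and Gbp3 by 1.96 and 2.40 on the log2 scale, all called. Within groups, the r with Cebpd was 0.92 in WT and 0.34 in KO for Fcgr2b, 0.61 and 0.61 for A2m, and 0.63 and 0.61 for Gbp3. For Cebpb they were Rhoa (0.942), Lbh (0.935) and Hnrnpf (0.929). The differences of Hnrnpf were 0.29 in WT and 0.39 in KO, both called, while Rhoa was called in WT alone (0.20, against 0.16 in KO) and Lbh in KO alone (0.33, against 0.25 in WT). For Cebpa they were Tbcd (0.853), Filip1 (0.853) and Tatdn2 (0.846), none of them called. For Cebpg, Lpl (0.880) and Phf10 (0.875) came first. Lpl rose by 1.25 in WT and 1.54 in KO, while Phf10 was not called.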

How the data were processed

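Ribosome-depleted total RNA of mouse cortex was sequenced in 24 libraries, 6 per group, with groups taken from the sample labels. The deposited values are log2 CPM in 4 tables of 12 columns, 1 per pair of groups, per the file headers; 0 columns of values were left unused. The submitters' processing notes name the build mm10. The aligner, counting, use of strand and gene filter are not given in the sources used here. In 100% of genes the 2 lowest and 2 highest deposited values of a group were tied at quartiles, a Winsorizing that understates the spread and that no label records.

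From these, 4 values per group were recovered and compared within each table by a trimmed-mean (Yuen) test with limma 3.58.1 in R 4.3.3 (empirical Bayes with trend, two-sided, Benjamini-Hochberg adjustment over all genes of the table, call at an adjusted p under 0.05). SE and intervals are of a difference of trimmed means, n = 6 per group. The test was tried on simulated data. Depth came from the step between low values, of which 72.6% to 91.2% were whole reads within 0.03 read (chance 6%). Depths, as scaled in each table, were 3.74 to 10.5 M reads (megareads) in CL KO, 5.83 to 8.41 in CL WT, 5.27 to 7.08 in PI KO and 6.12 to 9.89 in PI WT. For CL KO replicate 6, the shallowest, a depth of 7.48 M reads would put 57.8% of its low values at even counts and 0.73% at odd counts, so 3.74 was taken. Reads per library limit precision by counting error.

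The labels give the same animal for the PI and CL libraries of a number. Deviations from group means of such pairs correlated at -0.006 to 0.203 in WT and -0.015 to 0.188 in KO, and the paired test was an alternative. Other alternatives were limma on the deposited values, an untrended prior, 2 pseudocounts (0.5 and 1 CPM), a level filter, 2 centrings and, added after seeing the data, leaving out each library.

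The members and all gene lists were chosen with earlier results of these data known. Named genes were the members, up to 4 called genes per list with the largest positive and 2 with the largest negative WT difference, defining markers, and the 3 genes most like each member among genes of mean log2 CPM of at least 1. For Cebpg 1 of these is not reported here. KO values were given for the same lists, and Atf5, Tmem189, Spidr, the acute-phase genes listed in the CL table and the genes not called in the partner list were named after their values were seen. Motifs were matched in RefSeq promoters.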

Additional observations from a re-analysis of the deposited data

How the results depend on the processing

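Over 8 other ways of processing and 5 comparisons, 153 of 160 member values kept their direction and their side of the threshold, and none changed sign. The other 7 came from limma on the deposited values, which takes the drawn-in spread as real. It left the differences as they were and called Cebpa (0.53, adjusted p = 0.00807), Cebpb (0.54, adjusted p = 0.000154) and Cebpg (0.10, adjusted p = 0.0224) in WT. In KO it also called Cebpa (0.45, adjusted p = 0.0292) and Cebpg (0.19, adjusted p = 0.00108). It called Cebpd between genotypes in CL (-0.40, adjusted p = 0.00411) and in the interaction (0.57, adjusted p = 0.000963). The 160 values include the replicate block between genotypes, which pairs animals that share only a number.

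That fit counted 6459 calls for PI against CL in WT, 6666 in KO, 2388 between genotypes in PI, 2311 in CL and 1940 in the interaction, where the trimmed-mean test called 1537, 1440, 3, 4 and 0. An untrended prior gave 1015 in WT and 739 in KO. The replicate block, with PI and CL of an animal paired, changed no call of a member (Cebpb adjusted p = 0.0563 in WT and 0.0171 in KO) and called 1 gene in the interaction. Between genotypes the samples share only a number (correlations -0.194 to 0.155 in PI and -0.128 to 0.132 in CL, with 1 and 2 of 6 best with their own number), and the block gave 6 genes in PI and 85 in CL. The cause of these shifts was not tested.

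Leaving out each library in turn gave 900 to 1602 genes in KO (922 without PI KO replicate 2, 900 without CL KO replicate 5), 1117 to 1468 in WT, 3 to 4 in PI and 3 to 7 in CL (7 without CL KO replicate 1). Cebpb ran from 0.47 to 0.64 in WT and from 0.69 to 0.84 in KO. Values near 0 changed sign, for Cebpg between genotypes in PI (-0.021 to 0.049), for Cebpa in CL (-0.222 to 0.094) and for Cebpa in the interaction (-0.280 to 0.095). Cebpd ran from -0.49 to -0.34 between genotypes in CL and from 0.50 to 0.66 in the interaction, never called. Cebpa and Cebpb rest on 15.2 to 53.0 and 15.4 to 61.2 reads per library, and Cebpd in CL KO on 13.1 to 37.7. The part of counting error in their spread was not tested.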

Other observations

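Cebpz and Cebpzos carry similar symbols but encode no leucine zipper factor of this family, and neither was called in the trimmed-mean test. Cebpz differed between PI and CL by 0.15 in WT (adjusted p = 0.226) and by 0.12 in KO (adjusted p = 0.447). Cebpzos differed by -0.08 in WT (adjusted p = 0.766) and by 0.13 in KO (adjusted p = 0.623). Between genotypes Cebpz differed by -0.01 in PI and 0.01 in CL.

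The microglia markers did not move as one in WT animals. The complement genes C1qa, C1qb and C1qc rose in PI by 0.69, 0.87 and 0.54 on the log2 scale (adjusted p = 0.00119, 0.000150 and 0.00419 in the trimmed-mean test), with Aif1 (0.95) and Cx3cr1 (0.71). P2ry12, Siglech and Gpr34 fell, Siglech by 0.96 (adjusted p = 0.00492) and Gpr34 by 1.22 (adjusted p = 0.0324). Apart from P2ry12, these genes were picked out after their values were seen.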
